A study of Rattus norvegicus with 10 samples.

Results

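The let-7 family main arms are the mature miRNAs of the let-7 precursors that accumulate, those whose names in the count tables begin with rno-let-7 and carry the ending of the 5′ arm. There were 7 of them among the 723 mature miRNAs listed, namely let-7a, b, c, d, e, f and i, and all 7 passed the filter on low counts. They were measured in 10 small RNA libraries from female Wistar rats, all with collagen-induced arthritis (CIA), a rheumatoid arthritis model induced by immunization with bovine type II collagen. The groups hold 2 libraries each. CIA_B is tissue of arthritic rats before any therapy. MS_E was sampled 1 h and MS_A 34 days after the start of mechanical stimulation, brief sessions with a thin needle inserted and twirled at the lower back and the leg, which the labels call AP or acupuncture. PLA_E and PLA_A were sampled at the same times of placebo, which was a saline injection into the peritoneum. No healthy rats are among these libraries. The labels name muscle under the epidermis, the methods name subcutaneous tissue with the muscle there included, and the design text also speaks of blood.

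A miRNA guides Argonaute to messages that pair with its seed, bases 2 to 8, and lowers their translation and stability. let-7 was found as a regulator of developmental timing in worms, is abundant in differentiated tissues, and is known to repress growth and pluripotency genes such as Hmga2, Lin28 and Ras family members. Its hairpin is cut into a main arm, which is loaded, and a passenger arm, which is mostly degraded.

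The mature sequences of the members, from RefSeq on the GRCr8 assembly, are shown because the members differ from one another at few bases, which bears on how their reads can be told apart. The seed is in capitals.
rno-let-7a-5p: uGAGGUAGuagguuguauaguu
rno-let-7b-5p: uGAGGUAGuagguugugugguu
rno-let-7c-5p: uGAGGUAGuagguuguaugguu
rno-let-7d-5p: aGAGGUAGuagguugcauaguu
rno-let-7e-5p: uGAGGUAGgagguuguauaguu
rno-let-7f-5p: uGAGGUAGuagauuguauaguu
rno-let-7i-5p: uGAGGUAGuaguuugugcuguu

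All 7 have the seed GAGGUAG and 22 bases, and 15 of the 22 positions are the same in every member. Counted from 1 at the 5′ end with let-7a as the reference, let-7c differs by A19G, let-7e by U9G and let-7f by G12A, a single base each. The changes are A17G and A19G in let-7b, U1A and U16C in let-7d, and G12U, A17G, U18C and A19U in let-7i. miR-98-5p, which has the same seed, differs from let-7a by G11A and A19U. A read with an error at a single base can therefore match another member, and how many mismatches the counting allowed is not given in the sources used here.

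Several members have more than 1 gene, and most of the genes lie in clusters. In GRCr8 coordinates of the mature arm, let-7a lies at chr17:16320145-16320166, let-7f at chr17:16320508-16320529 and let-7d at chr17:16322273-16322294, all on the plus strand. The other copy of let-7a is at chr8:50805219-50805240 (+) and the other copy of let-7f at chrX:24460052-24460073 (+), 611 bases before miR-98. A copy of let-7c at chr7:118683636-118683657 (+) begins 408 bases before let-7b at chr7:118684044-118684065 (+). The other let-7c is at chr11:29688127-29688148 (+), in a cluster with miR-99a and miR-125b. let-7e at chr1:67350243-67350264 (+) sits between miR-99b and miR-125a, and let-7i at chr7:60527935-60527956 (-) is alone. The reads themselves were aligned to the older rn4 assembly, and the files give no coordinates. let-7g is not analysed here, and the family total and the shares of it given below are over the 7 members without it.

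Each library held between 1513799 and 8926170 reads on miRNAs, and between 24342 and 212721 of these were let-7. CIA_B replicate 1 was the smallest library. Values below are cpm, read counts divided by the library total and scaled by the TMM factors of edgeR (0.675 to 1.41), unless a share is named. The files allot a read to each precursor it matches, and the largest count over the precursors of a member was taken. The libraries of every group differed in miR-1-3p, an abundant miRNA of muscle fibres: the richer of each pair had 80416 to 122986 cpm and the poorer 10117 to 15567 cpm. For miR-206-3p, another miRNA of skeletal muscle, the richer were the same libraries. miR-133a-3p, also of muscle fibres, did not divide them so: in PLA_E and PLA_A it was lower in the library rich in miR-1-3p, at 70519 against 118963 cpm and 89188 against 139388 cpm. All 4 skeletal muscle markers were present, summing to between 83910 and 268531 cpm. The 2 slow-fibre markers summed to 56.5 to 1026 cpm, 5 of 6 leukocyte markers were found and summed to 1638 to 14586 cpm with the highest in PLA_A replicate 1, and 3 of 4 erythroid markers to 17.4 to 88.6 cpm. The 7 epithelial markers summed to 33.8 to 447 cpm with the highest in MS_E replicate 1, and 3 of them were at 0 in some library. In bulk tissue, fewer cells of a type and less of a miRNA per cell cannot be told apart.

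By reads, let-7f was the most abundant member in all 10 libraries, let-7a was always next and let-7e was always the least. Whether sequences that differ were captured equally well was not tested, which bears on the order, the ranks, the shares and the arm ratios. let-7f stood at 7803 and 12656 cpm in CIA_B, 7960.1 and 8433 cpm in MS_E, 10466 and 13413 cpm in PLA_E, 11738 and 9858 cpm in MS_A, and 8695 and 14141 cpm in PLA_A. let-7a stood at 5004 and 4608 cpm in CIA_B, 6365 and 4699 cpm in MS_E, 5085 and 5774 cpm in PLA_E, 5043 and 5783 cpm in MS_A, and 4889.9 and 5665 cpm in PLA_A. let-7f thus spread over a 1.81-fold range and let-7a over a 1.38-fold range, and the ranges of the pair did not meet, since the lowest let-7f exceeded the highest let-7a. By mean level let-7f ranked 14 and let-7a 19 among the 359 miRNAs tested.

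let-7c and let-7i came next, and their order was not fixed. let-7c stood at 3213 and 3941 cpm in CIA_B, 3540.2 and 3651 cpm in MS_E, 4542 and 3249.7 cpm in PLA_E, 3340.0 and 4609.8 cpm in MS_A, and 4263 and 3297 cpm in PLA_A. let-7i stood at 2596 and 4039.6 cpm in CIA_B, 3089 and 2204 cpm in MS_E, 2943 and 3724 cpm in PLA_E, 3660.3 and 2649 cpm in MS_A, and 3074 and 3361 cpm in PLA_A. let-7c exceeded let-7i in 6 of 10 libraries, so the neighbours do not differ beyond their spread in this counting. With reads summed over precursors, which adds to let-7c and not to let-7i, let-7c exceeded let-7i in 10 of 10. Their ranks by mean level were 23 and 25.

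let-7b and let-7d formed the next pair, and their order was not fixed either. let-7b stood at 1116 and 957 cpm in CIA_B, 942 and 1254 cpm in MS_E, 1803 and 704 cpm in PLA_E, 863 and 1630.0 cpm in MS_A, and 1899.6 and 834 cpm in PLA_A. let-7d stood at 1071 and 1196 cpm in CIA_B, 672 and 994 cpm in MS_E, 1048 and 1679.7 cpm in PLA_E, 1383 and 1071 cpm in MS_A, and 910.2 and 1538 cpm in PLA_A. let-7b exceeded let-7d in the same 6 libraries in which let-7c exceeded let-7i. These were the 5 libraries with more miR-1-3p and MS_E replicate 1. let-7b spread over 2.70-fold and let-7d over 2.50-fold, the widest ranges of the family.

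let-7e was the scarcest member. It stood at 266 and 384 cpm in CIA_B, 377 and 280.1 cpm in MS_E, 366 and 405 cpm in PLA_E, 428 and 330.1 cpm in MS_A, and 343 and 424 cpm in PLA_A. It still ranked 72 of 359. Of the 21 pairs of members, 19 kept their order in 10 of 10 libraries, and the other 2 were let-7c with let-7i and let-7b with let-7d. With reads summed over precursors 20 of 21 did, all but let-7b with let-7d.

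**Figure D1:**
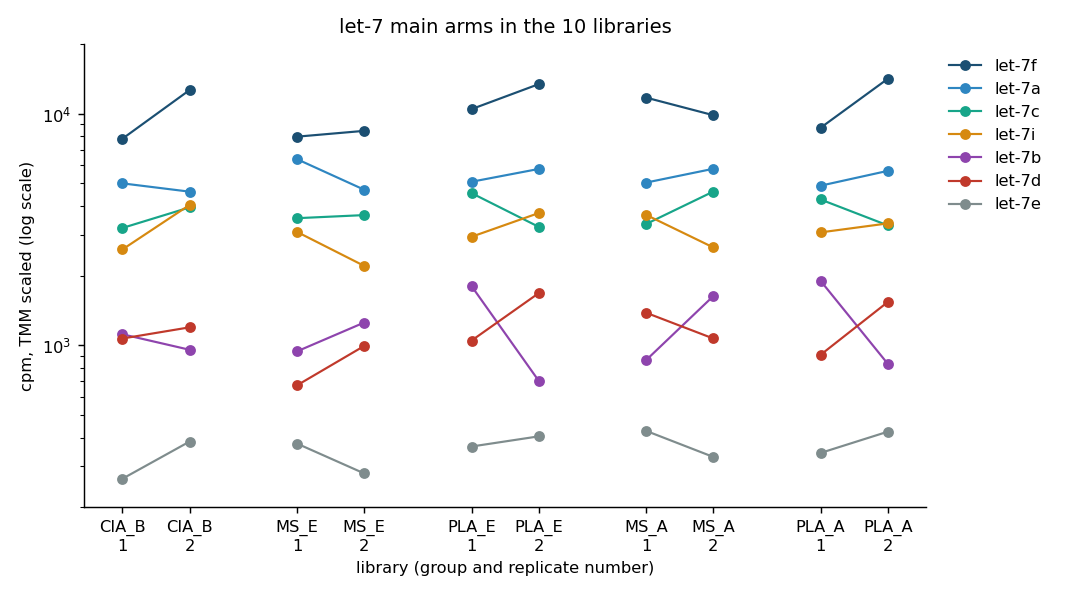
Level of each let-7 main arm (cpm, TMM scaled, log axis) in the 10 libraries, with lines joining the 2 libraries of a group. let-7f is highest and let-7e lowest everywhere, from 7803 to 14141 and from 266 to 428 cpm, while let-7b crosses let-7d and let-7c crosses let-7i.

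As shares of the family total, which do not depend on the scaling between libraries, let-7f made up 40.95% ± 4.80 (SD, n = 10 libraries of all groups), let-7a 21.0% ± 3.08, let-7c 15.0% ± 2.56 and let-7i 12.3% ± 1.48. let-7b held 4.83% ± 1.87, let-7d 4.51% ± 0.854 and let-7e 1.41% ± 0.130. They depend on the counting: with reads summed over precursors, which adds only to let-7a, c and f, let-7c held 17.1%, let-7i 7.01%, let-7b 2.75%, let-7d 2.57% and let-7e 0.81%. The share of let-7e moved least in absolute terms, from 1.26% in CIA_B replicate 1 to 1.64% in MS_E replicate 1. The Wilson 95% intervals of these 2 shares, 1.13 to 1.41% and 1.58 to 1.71%, are for counting error alone, as amplified reads are not separate molecules. The share of let-7b ran from 2.43% in PLA_E replicate 2 (Wilson 95% interval 2.34 to 2.53%) to 7.89% in PLA_A replicate 1 (7.72 to 8.06%).

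**Figure D2:**
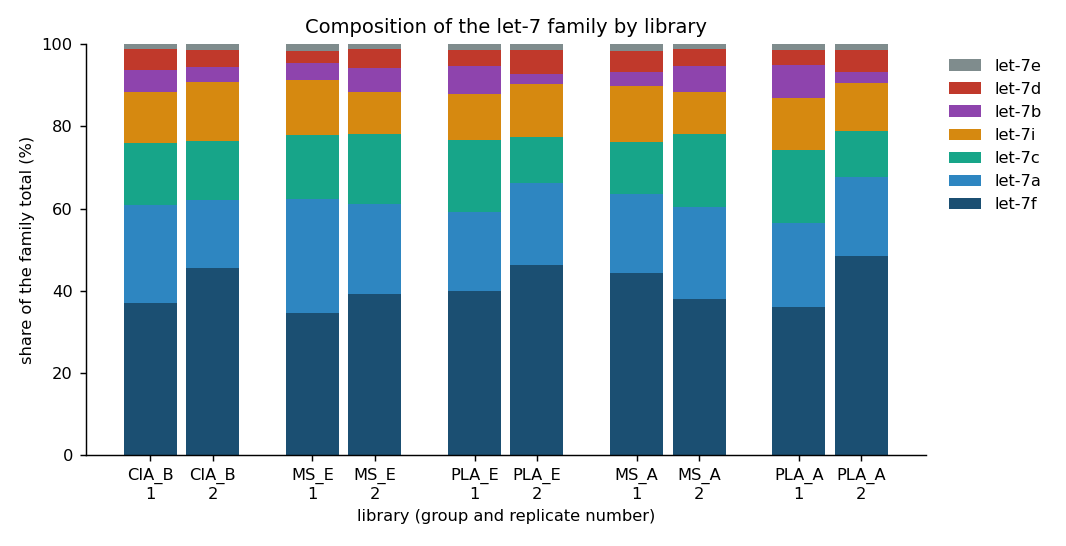
Share of each member in the summed let-7 main arms (percent of family reads) in each of the 10 libraries, as stacked bars that add to 100%. let-7f and let-7a fill the lower part of every bar, and the share of let-7b ranges from 2.43 to 7.89%.

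The family total was 21068 and 27782 cpm in CIA_B. It was 22945 and 21515 cpm in MS_E and 26254 and 28949.7 cpm in PLA_E at 1 h. At 34 days MS_A stood at 26455 and 25931 cpm, PLA_A at 24076 and 29259 cpm. It varied 1.39-fold, with the lowest value in the smallest library. Without TMM scaling the family took 1.61% (Wilson 95% interval 1.59 to 1.63%) of the miRNA reads in CIA_B replicate 1 and 3.71% (3.70 to 3.73%) in PLA_E replicate 1, with a median of 2.81%. This unscaled range is 2.31-fold, so the evenness of the total in cpm rests on the scaling.

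With TMM scaling the SDs of the members over the 10 libraries lay below the median of all miRNAs tested. The SD of log2 cpm was 0.15 for let-7a, 0.20 for let-7c, 0.24 for let-7e, 0.27 for let-7i, 0.32 for let-7f, 0.38 for let-7d and 0.50 for let-7b. Of the 359 miRNAs, 0 had a smaller SD than let-7a, 5 than let-7c and 112 than let-7b. The median of the members was 0.27, against 0.64 over all tested. Among the 65 miRNAs outside the family that were at least as abundant as let-7e the median was 0.55, and 1 of them had an SD under 0.27. With library size as the only scaling the SDs of the members rose to between 0.35 and 0.81, against a median of 0.71 over all tested. Then 22 miRNAs had a smaller SD than let-7a, which was still the lowest of the family, and 218 of 359 than let-7b, which lay above that median. In the spread within groups, with TMM scaling, 191 of 359 miRNAs were below let-7b. With DESeq2's size factors the SDs of the members over the 10 libraries were 0.18 to 0.49.

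The make-up of the family differed between the libraries with more and with less miR-1-3p. In each of the 5 groups let-7b and let-7c took a larger share of the family in the library with more miR-1-3p. For let-7b the shares were 5.30 against 3.45% in CIA_B, 5.83 against 4.11% in MS_E, 6.87 against 2.43% in PLA_E, 6.29 against 3.26% in MS_A and 7.89 against 2.85% in PLA_A. The let-7b shares of the 2 sets of libraries did not overlap. How many of all miRNAs divide these sets without overlap is not given here. For let-7c the shares in the same order were 15.2 against 14.2%, 16.97 against 15.4%, 17.3 against 11.2%, 17.8 against 12.6% and 17.7 against 11.3%. For let-7e the share was lower in that library beyond counting error (95% Wilson intervals) in MS_E, at 1.30 against 1.64%, and in MS_A, at 1.27 against 1.62%. In CIA_B, PLA_E and PLA_A the intervals of its shares overlapped. let-7f had the larger share with more miR-1-3p only in MS_E, and let-7i only in PLA_A.

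In cpm, let-7b was higher with more miR-1-3p in 5 of 5 groups, at 1116 to 1899.6 against 704 to 957 cpm, and in 4 of 5 with library size as the only scaling. With library size only, the let-7b values of the 2 sets of libraries overlapped. let-7e and let-7i were lower in 5 of 5, let-7e at 266 to 366 against 377 to 428 cpm, but with library size only they were higher in 4 of 5. let-7c was higher in 4 groups, let-7a in 2, and let-7d and let-7f in 1. Of all 359 miRNAs tested, 113 moved the same way in all 5 groups, 63 higher and 50 lower, or 31.5%, beside 3 of the 7 members. With library size as the only scaling they were 84 higher and 16 lower, or 27.9%, beside 0 of the 7 members. The directions of the shares do not depend on the scaling. Each group holds 1 library of either kind. With log2 cpm of miR-1-3p as a covariate of the fit, 0 members passed the thresholds in any comparison of groups. Of the 359 miRNAs, between 7 (PLA_E vs CIA_B) and 40 (PLA_A vs CIA_B) passed in that fit.

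**Figure D3:**
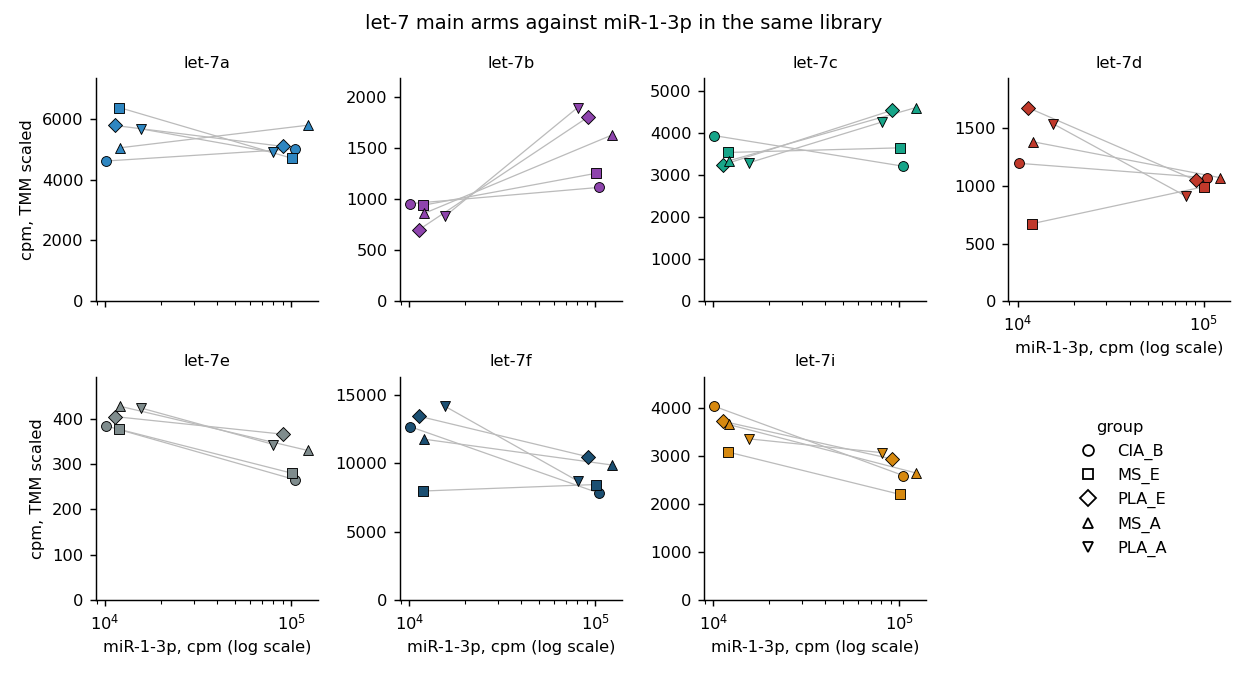
Level of each member (cpm, TMM scaled, linear axis from 0) against miR-1-3p (cpm, log axis) in the 10 libraries, with marker shapes for groups and a grey line joining the 2 libraries of a group. All 5 lines rise for let-7b, from 704 to 957 cpm at the left to 1116 to 1899.6 cpm at the right, and all 5 fall for let-7e and let-7i, of which 4 would rise with library size as the only scaling.

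The comparisons between groups were fitted with edgeR's quasi-likelihood test on all 10 libraries. A member is called differential here where its unadjusted p is under 0.05 and its change exceeds 2-fold, the limits the study set. The adjusted p-values (Benjamini-Hochberg) run over all 359 miRNAs. The labels do not say whether the 2 libraries of a group come from separate animals, so the p-values measure the spread between these libraries, which may be in part technical. Each after-therapy group is set against the same 2 CIA_B libraries, so those 4 comparisons are not independent of one another. Members were counted as free of overlap in either direction. Where a member was, the percentage of all miRNAs is given below for its direction only and cannot show enrichment. Where no member was, that percentage covers both directions.

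At 1 h after mechanical stimulation against before therapy, 0 of 7 members were differential, against a background of 6.41% of all miRNAs tested. let-7d had the largest estimate. Its MS_E libraries stood at 672 and 994 cpm, those of CIA_B at 1071 and 1196 cpm. It was the only member whose libraries did not overlap, while 13.1% of all miRNAs were lower without overlap (the percentage higher is not given). Its log2 fold change was -0.44 ± 0.44 (SE), with a 95% interval of -1.45 to 0.56 and an adjusted p of 0.955 in edgeR. This estimate was -0.25 without MS_E replicate 1 and -0.75 without MS_E replicate 2. The 7 members ran from -0.44 to 0.20, 4 above 0 and 3 below, with a median of 0.01 against 0.06 over all miRNAs. Without CIA_B replicate 1, the smallest library, the median of the members was -0.27, and without MS_E replicate 1 it was -0.25.

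At 1 h after placebo, 0 of 7 members were differential against before therapy (background 0.557%). All 7 estimates lay above 0, between 0.01 and 0.27, with a median of 0.22 against 0.07 over all miRNAs. The median turned to -0.074 without CIA_B replicate 1 and was 0.55 with library size only, where that of all miRNAs was 0.41. let-7b had the largest, 0.27 ± 0.59 (SE) with an interval of -1.05 to 1.60, but its PLA_E libraries at 1803 and 704 cpm lay on either side of CIA_B at 1116 and 957 cpm. Without PLA_E replicate 1 the estimate was -0.56. let-7a alone did not overlap, at 5085 and 5774 cpm against 5004 and 4608 cpm. Of all miRNAs 11.7% were higher without overlap, and the percentage lower is not given.

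After 34 days of therapy by mechanical stimulation, 0 of 7 were differential against before therapy (background 1.11%). The estimates ran from -0.07 to 0.27, 6 above 0, with a median of 0.15 against 0.10 over all, which turned to -0.070 for the members without CIA_B replicate 1. let-7b again had the largest, 0.27 ± 0.59 (SE) with an interval of -1.06 to 1.59, and its 2 MS_A libraries, 863 and 1630.0 cpm, enclosed those of CIA_B. Without MS_A replicate 2 the estimate was -0.32. let-7a did not overlap, at 5043 and 5783 cpm against 5004 and 4608 cpm. Of all miRNAs 16.2% were higher without overlap, and the percentage lower is not given.

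After 34 days of placebo therapy, 0 of 7 were differential against before therapy, where 6.96% of all miRNAs were (7.52% by the p alone). The estimates ran from -0.04 to 0.40, 6 above 0, with a median of 0.14 against 0.11 over all. The median of the members turned to -0.085 without CIA_B replicate 1 and to -0.078 without PLA_A replicate 2, and it was 0.40 with library size only, where that of all miRNAs was 0.40 too. let-7b had the largest, 0.40 ± 0.59 (SE) with an interval of -0.93 to 1.73, at 1899.6 and 834 cpm around the 1116 and 957 cpm of CIA_B. Without PLA_A replicate 1, which also had the highest sum of leukocyte markers, the estimate was -0.29, and the part of these cells was not tested. No member was free of overlap, against 36.5% of all miRNAs.

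Between mechanical stimulation and placebo at 1 h, 0 of 7 members were differential (background 3.9%). let-7d was at 672 and 994 cpm in MS_E and 1048 and 1679.7 cpm in PLA_E, and let-7f at 7960.1 and 8433 cpm and 10466 and 13413 cpm. These 2 members did not overlap between the groups. Of all miRNAs 11.7% were lower without overlap. The percentage higher is not given, so whether the members exceed the background in either direction was not tested. let-7d gave the largest estimate of any pairwise comparison, -0.71 ± 0.45 (SE), with an interval of -1.72 to 0.30, an unadjusted p of 0.145 and an adjusted p of 0.832 in edgeR. let-7f gave -0.54 ± 0.45 (SE) with an interval of -1.55 to 0.47. Of the 7 estimates 6 lay below 0, and the median was -0.23 against 0.03 over all miRNAs. With library size as the only scaling these medians were -0.55 and -0.22. With single libraries left out the let-7d estimate ran from -1.02 without MS_E replicate 2 to -0.34 without PLA_E replicate 2. MS_E replicate 1, the library with the lowest let-7d, had the highest sums of epithelial (447 cpm) and erythroid (88.6 cpm) markers and the lowest of skeletal muscle (83910 cpm) and slow-fibre (56.5 cpm) markers. Without it the let-7d estimate was -0.51, and the median of the members was also -0.51.

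Between the arms at 34 days the estimates of the members ran from -0.13 to 0.07 with a median of -0.02. That median was -0.35 with library size as the only scaling, where the median of all miRNAs was -0.34, and 0.23 without PLA_A replicate 2. None of the 7 was differential (background 1.95%), and none was free of overlap (20.1% of all). let-7d stood at 1383 and 1071 cpm in MS_A and 910.2 and 1538 cpm in PLA_A, a ratio of 1.00 with a 95% interval of 0.501 to 2.01. The interval thus still holds changes of nearly 2-fold either way. The largest estimate was that of let-7b, -0.13 ± 0.59 (SE), and it turned to 0.05 when no filter on low counts was used, to 0.35 without MS_A replicate 1 and to 0.58 without PLA_A replicate 1.

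Within the stimulation arm, from 1 h to 34 days, 0 of 7 were differential (background 3.9%), and 6 of 7 estimates lay above 0 with a median of 0.21 against 0.02 over all. The median of the members was 0.05 when a mean of 100 counts was required and 0.34 without MS_E replicate 1. let-7d went from 672 and 994 cpm to 1383 and 1071 cpm, an estimate of 0.56 ± 0.44 (SE) with an interval of -0.45 to 1.56. It was 0.34 without MS_E replicate 1, the library named above for its marker sums, 0.87 without MS_E replicate 2 and 0.34 with library size as the only scaling. let-7f went from 7960.1 and 8433 cpm to 11738 and 9858 cpm, an estimate of 0.40 with an interval of -0.61 to 1.41. Both were without overlap, while 16.7% of all miRNAs were higher without overlap (the percentage lower is not given). Within the placebo arm 0 of 7 were differential (background 2.79%) and none was free of overlap (24.2% of all), with estimates from -0.16 to 0.12, the lowest in let-7d. That of let-7d turned to 0.21 without PLA_E replicate 2 and to 0.19 without PLA_A replicate 1.

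The difference of the arms in their change over time was also tested. All 7 estimates of this interaction were above 0, from 0.01 for let-7a to 0.71 for let-7d, and 0 were differential (background 3.34%). For let-7d the interval was -0.70 to 2.13 and the unadjusted p 0.284 in edgeR. Its estimate was 0.32 without PLA_A replicate 1 or PLA_E replicate 2, and 1.22 without PLA_A replicate 2. In the test for any difference among the 5 groups the smallest p of a member was 0.609, again let-7d, while 4.18% of all miRNAs had an unadjusted p under 0.05.

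Over the 8 pairwise comparisons and 7 members, the 56 estimates lay between -0.71 and 0.56 on the log2 scale, and 0 exceeded 2-fold. In edgeR 0 had an unadjusted p under 0.05 and 0 an adjusted one, and limma-voom and DESeq2 also called 0. The precision was limited: standard errors were 0.38 to 0.59, and only 16 of the 56 intervals stayed within a 2-fold change in both directions. A change of a member by up to that size was therefore mostly not detectable here.

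**Figure D4:**
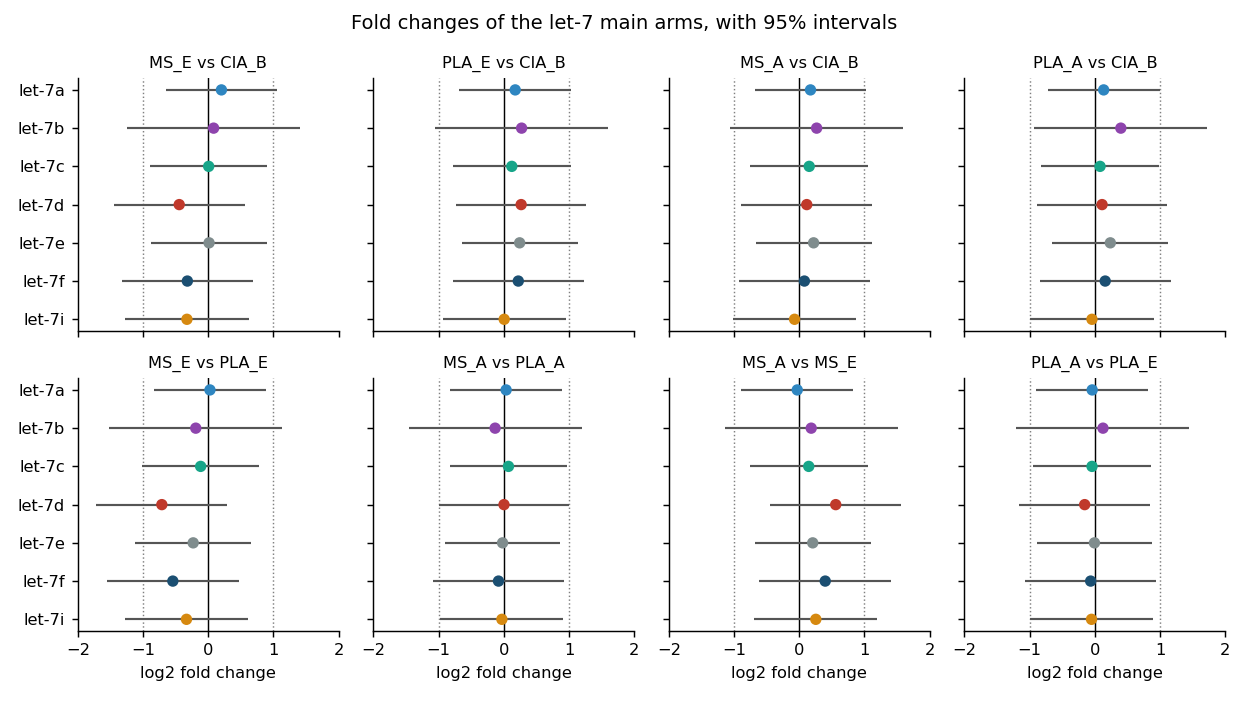
Log2 fold change (points) with its 95% interval (lines) for the 7 members in the 8 pairwise comparisons, with dotted lines at a 2-fold change. Every point lies inside the dotted lines, from -0.71 (let-7d, MS_E vs PLA_E) to 0.56 (let-7d, MS_A vs MS_E), and most intervals cross at least 1 of them.

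Across the 10 libraries the members fell into sets that moved together, given here as a description in which all values share the libraries, their depth and the scaling. Pearson's r of log2 cpm was 0.85 for let-7b with let-7c, which begin 408 bases apart on chromosome 7, 0.85 for let-7d with let-7f, which are neighbours on chromosome 17, and 0.85 for let-7e with let-7i, which share no locus. let-7e with let-7f gave 0.78 and let-7f with let-7i 0.74. let-7b went against let-7i (-0.55), let-7d (-0.52) and let-7f (-0.52). For let-7a and its cluster mates r depended on the scaling. With let-7f it was 0.05 on the TMM scale, 0.26 with DESeq2's size factors and 0.71 with library size only, and with let-7d it was -0.10, 0.0043 and 0.57 in the same order. With DESeq2's size factors the 3 leading pairs stood at 0.78, 0.85 and 0.88. With library size only every pair was positive, and the 3 pairs stood at 0.94, 0.92 and 0.93.

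On the TMM scale the 4 pairs that differ at 1 base had r from -0.16 (let-7a with let-7c) to 0.85 (let-7b with let-7c), and the single pair with 5 differences, let-7e with let-7i, had 0.85. With DESeq2's size factors the same 4 pairs ran from 0.16 to 0.78, and with library size only from 0.71 to 0.94. Members that are 1 base apart are also those whose reads are most easily exchanged in counting.

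The passenger arms were scarce except that of let-7d. The tables list 10 of them, of which 9 were tested. Main-arm reads per passenger read had a median of 550 for let-7f, 394 for let-7i, 117 for let-7a, 90.0 for let-7e, 87.9 for let-7c and 35.6 for let-7b, but 3.10 for let-7d, where the ratio ran from 2.40 to 4.89. let-7d-3p was present at 204 to 446 cpm, near the level of let-7e-5p. Its sequence is printed as that of the most abundant passenger arm, with no part in capitals.
let-7d-3p: cuauacgaccugcugccuuucu

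The rows of let-7a-1-3p and let-7c-2-3p have the same 22-base sequence, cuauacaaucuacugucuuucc, and their counts were equal in 9 of 10 libraries and 1 read apart in the other, so the reads of this arm cannot be assigned to let-7a or let-7c. The ratios of these 2 members share their passenger reads. let-7b-3p was steadier than its main arm, at 22.2 to 33.2 cpm, a 1.49-fold range against 2.70-fold.

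**Figure D5:**
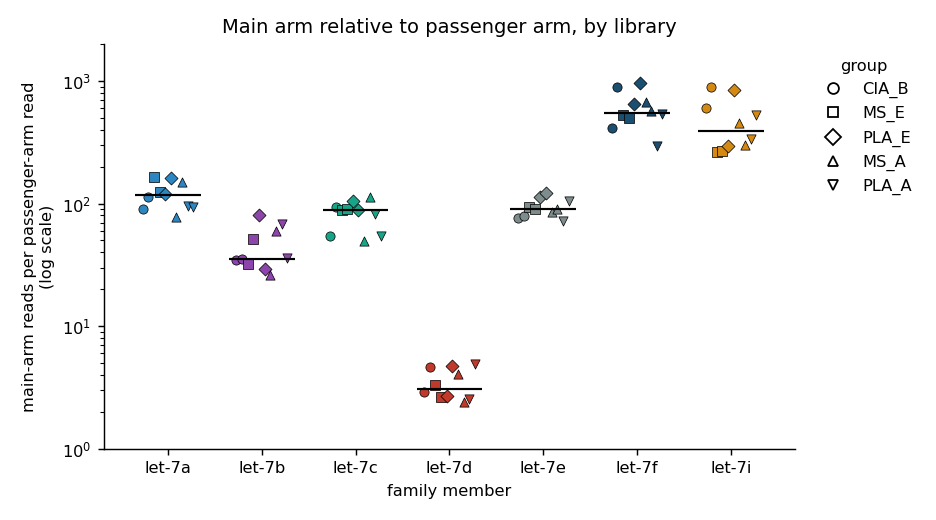
Main-arm reads per passenger-arm read (log axis) for each family member, with 1 point per library, marker shapes for groups and a bar at the median of the 10 libraries. let-7d lies at 2.40 to 4.89, below every other member, and let-7f at 296 to 953.

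Among the passenger arms, 1 of 9 tested passed the thresholds in PLA_A vs CIA_B and 1 of 9 in PLA_A vs PLA_E. Of all miRNAs 6.96% and 2.79% did in these comparisons. In each of the other comparisons 0 of 9 passed. let-7c-1-3p was lower after 34 days of placebo therapy than before it, with a log2 fold change of -1.41 ± 0.62 (SE; unadjusted p 0.0487, adjusted p 0.543 in edgeR), on 5 and 2 reads against 4 and 15. let-7f-2-3p was higher 34 days than 1 h after placebo, with a log2 fold change of 1.07 ± 0.45 (SE; unadjusted p 0.0424, adjusted p 0.999 in edgeR), at 63 and 92 reads against 67 and 22. PLA_A replicate 1, used in both comparisons, had the highest sums of leukocyte (14586 cpm) and slow-fibre (1026 cpm) markers. The part of these cells was not tested, and fits without single libraries are not given for these 2 arms.

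The relatives that share a seed or a locus are miR-98 and the arms of miR-99, miR-100 and miR-125. miR-98-5p stood at 215 to 498.6 cpm, and neither of its 2 arms passed the thresholds in any comparison, nor did any of the 11 cluster partners. On the TMM scale, r of log2 cpm over the 10 libraries was 0.78 for let-7e with miR-125a-5p and 0.18 with miR-99b-5p on its other side. let-7f and miR-98-5p gave 0.48, let-7a and miR-100-5p 0.19, and let-7c and miR-99a-5p -0.64. Values of r under other scalings are not given for these pairs.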

How the data were processed

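Small RNA libraries (TruSeq) of rat tissue were grouped by their labels. The authors demultiplexed with CASAVA 1.8, trimmed adapters, discarded reads under 18 bases, aligned to rn4 and miRBase v18 with miRDeep2, and deposited whole read counts for each library, without normalization. The version of miRDeep2 and the mismatches allowed are not given in the sources used here. A joint table was left aside because the names of its 20 value columns match no label.

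From the deposited counts, the largest count over precursors was taken for each mature miRNA. Testing was limited to the 359 miRNAs that reached 1 cpm in 5 or more libraries. The 364 removed held so few reads that 99.97% remained. edgeR 4.0.16 (R 4.3.3) gave the TMM factors and the quasi-likelihood fit, with all 10 libraries in 1 fit and a prior count of 2, two-sided. An exact permutation test of 2 against 2 cannot go below p = 0.333, so none was run. No pair of libraries in a group looked like a duplicate (chi-square of their counts per degree of freedom, 1572 to 8692). Depth ranged from 1513799 to 8926170 reads, so the smallest library is the least precise. Alternatives were limma-voom (limma 3.58.1), DESeq2 1.42.0, DESeq2's size factors or library size alone in edgeR, dropping the filter, requiring a mean of 100 counts, fitting the compared libraries alone, a block for the replicate number, miR-1-3p as a covariate, summed precursors, miR-98-5p added to the family, and each library left out. Sequences and coordinates are RefSeq's on GRCr8, matched by miRNA name for 7 of 7 members. The members, lists and tests were chosen with earlier results of these data known. By the rule for named miRNAs, a fold change is given singly for the member with the largest change in each comparison and for any relative with an unadjusted p under 0.05. let-7f in 2 comparisons, let-7d at 34 days and let-7a, where they are given singly beside it, were chosen after their values were seen. Tables used Python 3.11.15 with pandas 2.3.3 and numpy 2.4.6, intervals scipy 1.17.1, and figures matplotlib 3.10.9.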

Additional observations from a re-analysis of the deposited data

How the results depend on the processing

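In all 20 alternative settings 0 members passed the thresholds in any comparison, and 0 had an unadjusted p under 0.05. The smallest p was 0.0894 in edgeR (adjusted p 0.785), for let-7d between MS_E and PLA_E without PLA_E replicate 1, at a log2 fold change of -1.01. Of the recomputed fold changes of the named members, 172 kept their direction and 8 turned. let-7b between MS_A and PLA_A turned from -0.13 to 0.053 with no filter on low counts. With single libraries left out, let-7b ran from -0.32 to 0.70 for MS_A vs CIA_B, from -0.68 to 0.58 for MS_A vs PLA_A, from -0.29 to 0.77 for PLA_A vs CIA_B and from -0.56 to 0.83 for PLA_E vs CIA_B, and let-7d from -0.69 to 0.21 for PLA_A vs PLA_E. The cause was not tested. let-7d kept its direction for MS_E vs CIA_B (-0.75 to -0.25), MS_E vs PLA_E (-1.02 to -0.34) and MS_A vs MS_E (0.34 to 0.87).

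The replicate numbers do not pair the libraries: the correlation of same-numbered deviations ran from -0.54 to 0.59 over 10 pairs of groups and exceeded 0.1 in 4. With the number as a replicate block, 0 members passed, and let-7d between MS_E and PLA_E gave -0.70. Of all miRNAs tested, between 1 (PLA_E vs CIA_B) and 21 (MS_E vs CIA_B and PLA_A vs CIA_B) passed in that fit.

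With library size only, the median of all miRNAs moved by up to 0.35 (PLA_E vs CIA_B). The median of the members relative to all, for MS_E vs PLA_E, was -0.26 with TMM, -0.32 with library size and -0.25 with DESeq2's size factors. The SDs under other scalings were an alternative chosen after seeing the data. Summing over precursors raised the share of let-7f to 45.8% and that of the family in all miRNA reads from 2.62% to 4.39%, and lowered let-7i to 7.01%, let-7b to 2.75%, let-7d to 2.57% and let-7e to 0.81%, as only let-7a, c and f have 2 precursors each. The numbers of differential miRNAs over the whole table moved more than 1.5 times in each comparison, between 16 and 38 (23 as reported) for MS_E vs CIA_B, 1 and 9 (2) for PLA_E, 2 and 12 (4) for MS_A and 9 and 40 (25) for PLA_A against the same group, 7 and 35 (14) for MS_E vs PLA_E, 1 and 14 (7) for MS_A vs PLA_A, 4 and 32 (14) for MS_A vs MS_E, 1 and 22 (10) for PLA_A vs PLA_E, 3 and 17 (12) for the interaction and 3 and 31 (15) for any group. Depth was lowest in CIA_B replicate 1, where let-7e, the scarcest member, had 307 reads and the passenger arm let-7c-1-3p had 4.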

Other observations

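The miRNAs outside the family whose log2 cpm was most like that of the family total over the 10 libraries were miR-152-5p (Pearson's r 0.92), miR-671 (0.89), miR-101b-3p (0.88), miR-101a-3p (0.86) and miR-106b-3p (0.85), on the TMM scale. Most opposite to the family total were miR-500-3p (-0.89), miR-193-5p (-0.86) and miR-330-5p (-0.85). Other scalings are not given for these values. Each member is itself part of that total, which sets part of its own r: 0.95 for let-7f, 0.85 for let-7e, 0.77 for let-7i, 0.71 for let-7d, 0.20 for let-7a, 0.037 for let-7c and -0.36 for let-7b. miR-101a-3p ran from 1235 to 5616 cpm, a wider range than any member, and miR-152-5p from 3.46 to 27.3 cpm.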
